A study of Arabidopsis thaliana with 24 samples.

Results

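The 45 genes described here are the nuclear genes for photosystem subunits, photosynthetic electron transport, the minor antenna LHCB4 to LHCB6 and the photosystem I antenna LHCA1 to LHCA6. They were chosen by TAIR locus, and all 45 were found among the 32833 loci of the count tables. By complex they are 12 genes of photosystem I, 13 of photosystem II, 9 of electron transport and ATP synthase, 5 of the minor antenna and 6 LHCA genes. All 45 passed the filter on low counts at both times.

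RNA was sequenced from whole Arabidopsis thaliana seedlings (Col-0, 4 days old), in 3 libraries for each of 8 groups. Seedlings were wild type (WT) or agb1, a line mutated in AGB1, the gene for the G-protein beta subunit. They were treated with 0.2% DMSO or with 40 µM NAE 18:3 (N-linolenoylethanolamine, a fatty acid ethanolamide), and were harvested after 1 h or 3 h. Before that, every group grew at 21 °C in shaken liquid medium that held 1% sucrose, and the treatment itself took place in dishes of 20 mL. The agb1 allele is not given in the labels, nor is it said that replicates came from separate cultures, so p-values measure the spread between these samples.

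Photosystem II splits water and passes electrons through the cytochrome b6f complex and plastocyanin to photosystem I, which reduces ferredoxin, and the proton gradient built on the way drives ATP synthase. The reaction centre cores are encoded in the plastid, while most peripheral subunits and all light-harvesting proteins are encoded in the nucleus and imported. In young seedlings these nuclear genes are among the most strongly expressed in green cells, and light, the clock, sugars and stress are known to move them together.

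Libraries held 18.0 to 61.9 M counts. At 3 h the 6 WT libraries had 20.0 to 25.8 M and the 6 agb1 libraries 36.0 to 51.9 M, so depth moved with genotype, and its part in the genotype differences was not tested. Replicates of agb1 under DMSO at 3 h differed more from each other than those of the other 3 h groups. The chi-square per degree of freedom between their counts was 47.4 to 83.9 over pairs, against 8.56 to 28.2. That measure grows with depth. One 1 h library differed from the rest, replicate 2 of the DMSO-treated WT seedlings. It had the fewest counts, 18.0 M, with 5.28% ribosomal RNA and 1.18% plastid counts, against at most 0.0764% ribosomal RNA in the other 1 h libraries. AGB1 itself (AT4G34460) was at 47.8 ± 0.536 CPM (TMM-scaled CPM, the count relative to the library's scaled total, SD, n = 3) in WT and 26.0 ± 4.52 in agb1 under DMSO at 3 h, and at 103 ± 9.04 and 33.3 ± 1.84 under NAE 18:3. At 1 h it was at 53.6 ± 2.67 in WT and 47.9 ± 4.90 in agb1 under DMSO, and at 62.0 ± 1.93 and 48.3 ± 6.03 under NAE 18:3. Counts over the whole locus do not show whether the mutant makes intact transcript, so at 1 h they are a weak check of the genotype labels.

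The 45 genes took 4.06%, 4.34% and 4.73% of all counts in the 3 WT libraries under DMSO at 3 h. Under NAE 18:3 the WT libraries gave 2.77%, 2.97% and 3.06%, the agb1 libraries under DMSO 2.94%, 2.87% and 3.04%, and those under NAE 18:3 2.48%, 2.44% and 2.23%. The WT libraries under DMSO were the highest of the 12 and did not overlap any other group, and the agb1 libraries under NAE 18:3 were the lowest. At 1 h the 12 libraries lay between 2.99% and 3.68%, and the groups overlapped. Shares are of the raw library total, without TMM scaling, and are given as values without a test. In whole seedlings, fewer green cells and less of these RNAs per cell cannot be told apart.

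**Figure D1:**
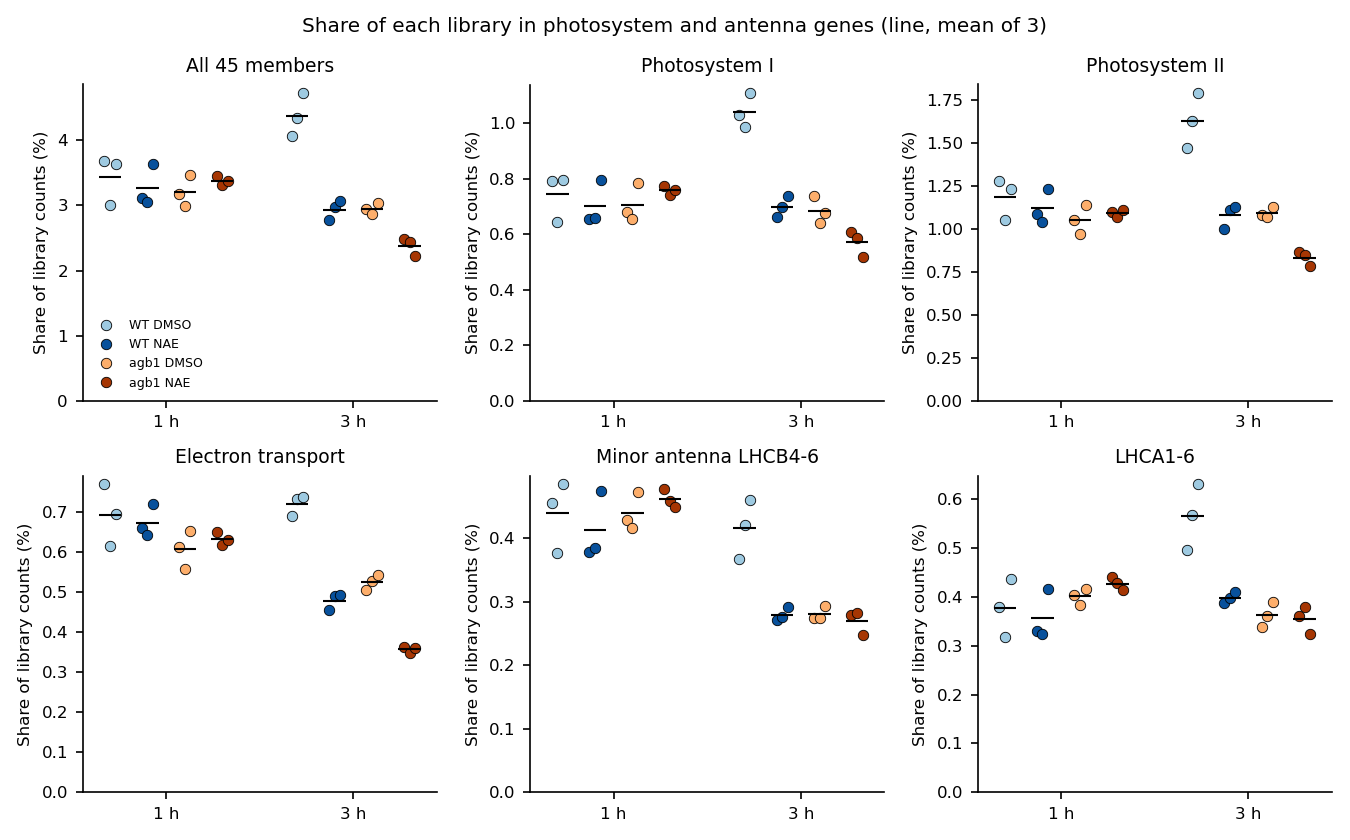
Share of each library's counts (percent, y axis) held by all 45 genes and by each complex, at 1 h and 3 h. Points are single libraries, lines the mean of 3; at 3 h WT under DMSO stands highest in every panel, with a mean of 4.38% for all 45 genes against 2.93% in WT under NAE 18:3.

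By complex, the mean share at 3 h in WT was 1.04% under DMSO and 0.699% under NAE 18:3 for photosystem I, and 1.63% and 1.08% for photosystem II. Electron transport genes took 0.721% and 0.480%, the minor antenna 0.416% and 0.280%, and LHCA genes 0.564% and 0.398%. The ratio of these raw shares, NAE 18:3 to DMSO, was therefore alike over the complexes in WT, from 0.662 to 0.705. In agb1 it was 0.833 for photosystem I, 0.762 for photosystem II and 0.681 for electron transport, but 0.960 for the minor antenna and 0.975 for LHCA genes. Shares are of the raw library total, without TMM scaling, and strongly expressed genes weigh most in them. After TMM scaling, the median log2 fold changes in WT were less alike. They were -0.21 for photosystem I, -0.54 for photosystem II, -0.48 for electron transport, -0.8 for the minor antenna and -0.25 for LHCA genes. In agb1 the median was 0.071 for photosystem I, with 8 of 12 genes above 0. It was -0.29 for photosystem II, -0.25 for electron transport, 0.028 for the minor antenna and 0.003 for LHCA genes. The ratios of shares are descriptions, and the difference between complexes was not tested.

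NAE 18:3 for 3 h in WT lowered 24 of the 45 genes and raised none, at an adjusted p under 0.05 (edgeR's quasi-likelihood test, Benjamini-Hochberg over 20672 loci). Of all tested loci, 29.1% were called lower and 29.4% higher in the same comparison. The median log2 fold change was -0.44 over the 45 genes and -0.003 over all tested loci. The genes called lower were 5 of 12 in photosystem I, 8 of 13 in photosystem II, 5 of 9 in electron transport, 3 of 5 in the minor antenna and 3 of 6 among LHCA. Among the 24, the groups overlapped in PSBX, and in the others the 3 libraries under NAE 18:3 lay below the 3 under DMSO. Overlap was computed for members only, and the calls rest on the same libraries, so it describes them and adds no support. The calls of LHCA2, PSBX and PSAF were lost in 10, 4 and 2 of 19 alternatives, and the other 21 were kept in all. The falls were moderate, and only LHCA6 and LHCB4.2 among the 24 fell by more than 2-fold. In WT under DMSO at 3 h the most strongly expressed members per kilobase of exon were PSAF, at 3150 ± 298 CPM per kb (SD, n = 3), PSBR, at 2920 ± 309, and PSBO1, at 2430 ± 427. The SDs of these neighbours overlap, so their order is not resolved. The lowest were PSAG, at 14.3 ± 3.23, and LHCB4.3, at 18.0 ± 3.56.

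In photosystem I the clearest fall was that of PSAH2 (AT1G52230), a copy of the subunit at which LHCII docks during state transitions. Its level was 281, 296 and 320 CPM under DMSO and 172, 173 and 172 CPM under NAE 18:3, a log2 fold change of -0.79 ± 0.091 (SE, adjusted p = 5.37e-06). The NAE 18:3 libraries were nearly equal and all well below the DMSO libraries. PSAD1 (AT4G02770), a stromal subunit that docks ferredoxin, stood at 1310, 1380 and 1540 CPM and at 911, 908 and 866 CPM, a log2 fold change of -0.65 ± 0.13 (adjusted p = 0.000741). Its second copy PSAD2 (AT1G03130), PSAF (AT1G31330), which docks plastocyanin, and the lumenal PSAN (AT5G64040) fell too. PSAE1 (AT4G28750) and PSAE2 (AT2G20260), stromal subunits near the ferredoxin site, were at log2 0.20 ± 0.13 and 0.16 ± 0.13 and did not pass. PSAG (AT1G55670), PSAH1 (AT3G16140), PSAK (AT1G30380), PSAL (AT4G12800) and PSAO (AT1G08380), peripheral membrane subunits, did not pass either.

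Photosystem II showed its strongest fall in PSB28 (AT4G28660), known as an assembly factor rather than a subunit of the finished complex. It was at 102, 117 and 117 CPM under DMSO and 53.5, 63.6 and 60.7 CPM under NAE 18:3, a log2 fold change of -0.92 ± 0.099 (adjusted p = 3.02e-06). PSB27 (AT1G03600), a further assembly factor, was at 169, 218 and 246 CPM and at 115, 123 and 128 CPM, a log2 fold change of -0.79 ± 0.13 (adjusted p = 0.000184). In both genes the groups were apart. PSBO2 (AT3G50820) and PSBP1 (AT1G06680) of the oxygen-evolving complex, the small subunits PSBX (AT2G06520), PSBY (AT1G67740) and PSBTN (AT3G21055), and PSBS (AT1G44575), the sensor of energy-dependent quenching, fell as well. PSBO1 (AT5G66570), PSBQ1 (AT4G21280), PSBQ2 (AT4G05180), PSBR (AT1G79040) and PSBW (AT2G30570) did not pass. PSBR, an abundant small subunit, had 2220, 2090 and 2560 CPM under DMSO and 2070, 2510 and 2470 under NAE 18:3, with overlapping groups.

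Among electron transport genes the delta subunit of ATP synthase, ATPD (AT4G09650), was at 647, 671 and 672 CPM under DMSO and 329, 377 and 327 CPM under NAE 18:3, a log2 fold change of -0.95 ± 0.11 (adjusted p = 6.3e-06). The leaf ferredoxin FD2 (AT1G60950) was at 1190, 1360 and 1300 CPM and at 727, 816 and 796 CPM, a log2 fold change of -0.72 ± 0.12 (adjusted p = 0.000121). Neither gene's groups overlapped. The gamma subunit ATPC1 (AT4G04640), the plastocyanin PETE1 (AT1G76100) and the ferredoxin-NADP reductase LFNR2 (AT1G20020) fell too. PETC (AT4G03280), the Rieske protein of cytochrome b6f, and PETM (AT2G26500), a small subunit of that complex, were at log2 0.01 and -0.03, with the largest p of all members. PETE2 (AT1G20340) and LFNR1 (AT5G66190) did not pass.

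In the minor antenna, which links LHCII to photosystem II, LHCB4.2 (AT3G08940) was at 334, 394 and 451 CPM under DMSO and 172, 178 and 170 CPM under NAE 18:3 in WT. Its log2 fold change was -1.18 ± 0.12 (adjusted p = 1.99e-06). LHCB4.3 (AT2G40100), a low member, was at 20.2, 28.7 and 29.5 CPM and at 12.7, 16.7 and 13.1 CPM, a log2 fold change of -0.89 ± 0.16 (adjusted p = 0.000283). LHCB6 (AT1G15820) was at 378, 507 and 527 CPM and at 243, 275 and 293 CPM, and fell by 0.80 ± 0.15 on the log2 scale. All 3 genes had separate groups. LHCB4.1 (AT5G01530) and LHCB5 (AT4G10340) were both at log2 -0.18 and did not pass.

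Among LHCA genes, LHCA6 (AT1G19150) was the member that fell most. With LHCA5 it is known to join photosystem I to the NAD(P)H dehydrogenase-like complex. Its level was 45.6, 60.3 and 70.5 CPM under DMSO and 17.7, 21.0 and 20.7 CPM under NAE 18:3, a log2 fold change of -1.57 ± 0.15 (adjusted p = 9.3e-07). The main antenna gene LHCA3 (AT1G61520) was at 1390, 1580 and 1760 CPM and at 1090, 1160 and 1040 CPM, a log2 fold change of -0.52 ± 0.11 (adjusted p = 0.00113). Both had the NAE 18:3 libraries below the DMSO libraries. LHCA2 (AT3G61470) fell by 0.33 ± 0.13, with an adjusted p of up to 0.237 over the alternatives, while LHCA1 (AT3G54890), LHCA4 (AT3G47470) and LHCA5 (AT1G45474) did not pass.

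**Figure D2:**
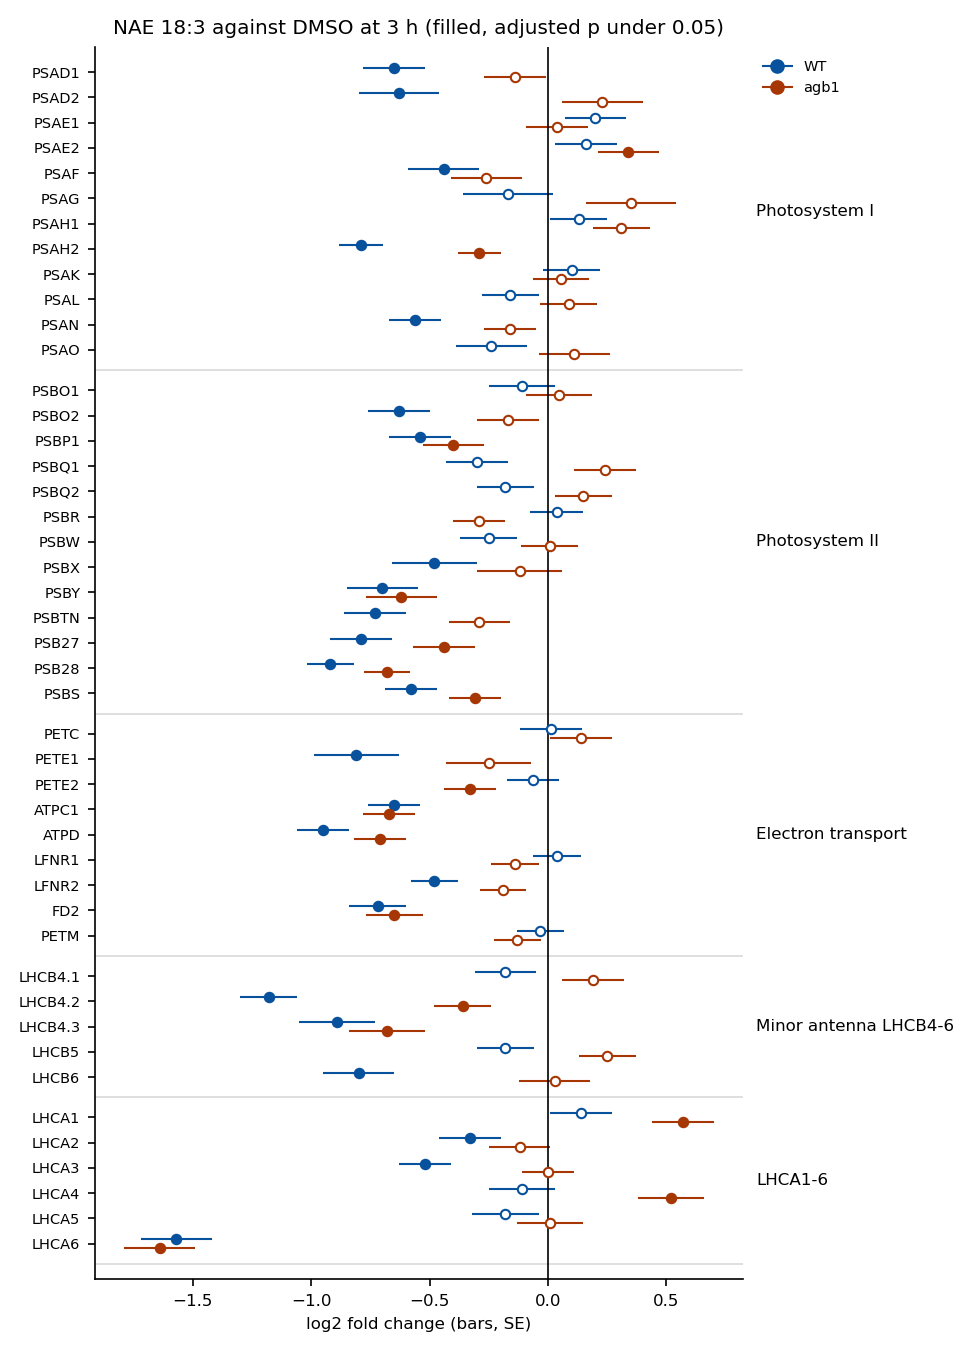
Log2 fold change of each of the 45 genes (x axis, bars SE) under NAE 18:3 against DMSO at 3 h, in WT and in agb1, grouped by complex; filled points have an adjusted p under 0.05. In WT 24 points are filled, all below 0; in agb1 13 are filled below 0 and 3 above 0.

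Sequences before the annotated starts of the 2 members with the smallest p for NAE 18:3 in WT at 3 h, LHCA6 and LHCB4.2, and of the 2 with the largest, PETC and PETM, are shown to set the extremes side by side. They are 250 bases up to the start, from RefSeq TAIR10.1, written 5′ to 3′ on the plus strand, on which all 4 genes lie. Capitals mark matches, on either strand, to CACGTG (G-box), GATAAG (I-box), CCAATC (a GLK motif) and AAAATATCT (evening element).
LHCA6, chr1:6612380-6612629: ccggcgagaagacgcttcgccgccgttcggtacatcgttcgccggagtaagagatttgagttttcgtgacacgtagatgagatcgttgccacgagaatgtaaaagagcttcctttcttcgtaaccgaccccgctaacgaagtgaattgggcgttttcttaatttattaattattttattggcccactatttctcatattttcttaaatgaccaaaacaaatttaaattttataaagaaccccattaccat
LHCB4.2, chr3:2717307-2717556: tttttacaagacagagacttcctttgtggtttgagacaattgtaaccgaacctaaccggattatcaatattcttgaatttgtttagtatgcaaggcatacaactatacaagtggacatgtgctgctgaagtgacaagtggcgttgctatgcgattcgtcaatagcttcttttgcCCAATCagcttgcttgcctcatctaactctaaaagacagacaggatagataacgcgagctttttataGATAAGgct
PETM, chr2:11269832-11270081: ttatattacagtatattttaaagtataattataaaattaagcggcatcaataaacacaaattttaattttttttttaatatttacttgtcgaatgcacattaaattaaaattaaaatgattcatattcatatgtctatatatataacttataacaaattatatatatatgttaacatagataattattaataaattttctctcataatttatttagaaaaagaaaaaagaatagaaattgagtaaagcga
PETC, chr4:1439896-1440145: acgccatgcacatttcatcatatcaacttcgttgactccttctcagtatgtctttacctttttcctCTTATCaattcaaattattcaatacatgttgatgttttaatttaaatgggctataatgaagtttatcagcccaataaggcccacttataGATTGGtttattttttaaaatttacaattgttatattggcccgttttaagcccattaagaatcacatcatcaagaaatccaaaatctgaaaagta
LHCB4.2 and PETC hold I-box and GLK matches, and LHCA6 and PETM hold no match before the start.

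Over 250 bases before to 50 after the start, 16 of the 45 genes (35.6%) held a G-box, against 8.8% of 20288 promoters of tested protein-coding loci. An I-box was in 22 genes (48.9%, against 14.6%), a GLK motif in 14 (31.1%, against 12.7%) and the evening element in 2 (4.4%, against 3.0%). The G-box was in 6 of the 24 genes that fell in WT at 3 h and in 10 of the 21 that were not called, the I-box in 10 and 12, and the GLK motif in 6 and 8. None of the searched motifs contains another, though matches may overlap in a promoter, and a match is a description and not a binding site.

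Genes around the photosystems moved with them in part. Of the major antenna list of LHCB1 to LHCB3, 8 of 9 genes were tested and 4 fell, LHCB2.1 by 2.11 ± 0.15 and LHCB2.2 by 1.94 ± 0.15 on the log2 scale. Shared sequence was not checked within this list, so here and below the split of reads among its copies is uncertain. Of 20 genes for photosystem assembly and regulation 9 fell and none rose. The smallest p there were those of CPSRP43, which guides antenna proteins to the membrane, at log2 -1.04 ± 0.14, and PGRL1A, of cyclic electron flow, at -0.91 ± 0.13. Of 6 tested genes of other electron transport proteins, the root ferredoxin reductase RFNR1 rose by 0.85 ± 0.11, and the ferredoxin FD1 and the reductase RFNR2 fell. FD1 was at -0.74 ± 0.11. LHCB1.5, ATPC2 and FDC1 are listed at 0 in all 24 libraries. Of 20 plastid-encoded subunit genes 5 rose and none fell, against 29.4% and 29.1% of all tested loci. Poly(A) selection captures plastid RNA poorly, and the summed level of these genes was 152 to 352 CPM in the 6 libraries. Summed levels of lists, here and below, are CPM of the raw library total, without TMM scaling.

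Markers of green tissue (RBCS1A, CA1, RCA, GAPA1, GAPB and HCEF1) moved with the members: 5 of 6 fell in WT. Their summed level, not TMM-scaled, was 23900 to 28300 CPM under DMSO and 18200 to 21300 under NAE 18:3. The smallest p among them were those of CA1, at log2 -0.97 ± 0.17, and HCEF1, at -0.56 ± 0.10. Of 10 tested root markers 4 rose and 2 fell, led by WOX5, which went from 1.56 ± 0.502 to 30.8 ± 8.91 CPM, and SCR at log2 -1.05 ± 0.12. The summed level of the root markers was 4240 to 4990 CPM and 1730 to 2360 CPM, with IRT1 at 0 in all 3 h libraries. Strongly expressed genes weigh most in that sum. Of the 10 markers, 7 had a log2 fold change above 0, and the median was 0.63. The summed level of the seed storage markers was 0.0800 to 0.780 CPM in the 12 libraries. The part of tissue proportions in the members' changes was not tested.

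In agb1, 3 h of NAE 18:3 lowered 13 of the 45 genes, against 26.0% of all tested loci called lower, and raised 3, against 24.5% called higher. The share called lower is close to that of all loci, so it is no result about these genes. The median log2 fold change was -0.13 over the members and -0.026 over all loci. The genes that fell were 1 of photosystem I, 5 of photosystem II, 4 of electron transport, 2 of the minor antenna and 1 LHCA gene. The 3 that rose were PSAE2, LHCA1 and LHCA4.

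LHCA6 again led, at 31.5, 25.8 and 29.4 CPM under DMSO and 9.49, 9.90 and 8.40 CPM under NAE 18:3 in agb1, a log2 fold change of -1.64 ± 0.15 (adjusted p = 9.63e-07). Its libraries under NAE 18:3 were the lowest of the 12 at 3 h. PSB28 was at 110, 124 and 118 CPM and at 75.6, 69.9 and 73.5 CPM, a log2 fold change of -0.68 ± 0.098 (adjusted p = 5.77e-05). PSBY fell by 0.62 ± 0.15, ATPD by 0.71 ± 0.11, ATPC1 by 0.67 ± 0.11 and FD2 by 0.65 ± 0.12 on the log2 scale. In photosystem I PSAH2 fell by 0.29 ± 0.091. In the minor antenna LHCB4.3 fell by 0.68 ± 0.16 and LHCB4.2 by 0.36 ± 0.12.

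LHCA1 was at 547, 610 and 702 CPM under DMSO and 946, 992 and 826 CPM under NAE 18:3 in agb1, a log2 fold change of 0.57 ± 0.13 (adjusted p = 0.00294). LHCA4, which pairs with LHCA1 in the antenna belt, was at 416, 506 and 550 CPM and at 748, 732 and 636 CPM, a log2 fold change of 0.52 ± 0.14. Both groups of libraries were apart in both genes, with NAE 18:3 higher. The higher levels were near those of WT under either treatment, where LHCA1 was at 991 ± 146 and 1090 ± 66.0 CPM and LHCA4 at 784 ± 134 and 729 ± 16.2 CPM. PSAE2 rose by 0.34 ± 0.13 (adjusted p = 0.0357), but was lost in 6 of 19 alternatives. The calls of LHCA1, LHCA4, LHCA6, PSB28, PSBY, ATPD, ATPC1, FD2 and LHCB4.3 were kept in all 19. Without replicate 1 of agb1 under DMSO, or without replicate 3 of agb1 under NAE 18:3, 10 of the 45 genes were called in place of 16, with 8 and 7 lower. Without replicate 3 of agb1 under DMSO 8 were lower and 7 higher, and the median was -0.028.

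The lists around them in agb1 were mixed. Of 8 major antenna genes 4 rose and 2 fell, with LHCB1.1 at log2 1.37 ± 0.17 and LHCB2.1 at -0.67 ± 0.14 as those of smallest p. LHCB1 genes are near-identical copies, so the split of reads among them is uncertain. Of the assembly and regulation genes 1 rose and 7 fell, with CPSRP43 at -0.91 ± 0.14 and Y3IP1 at -0.62 ± 0.12, and of 6 other electron transport genes 1 rose and 3 fell, with FD1 at -0.87 ± 0.11 and RFNR1 at 0.61 ± 0.11. Of the plastid-encoded genes 19 of 20 rose, against 24.5% of all tested loci. Their summed level was 144 to 323 CPM under DMSO and 354 to 533 CPM under NAE 18:3. Ribosomal RNA, like plastid RNA poorly captured by poly(A) selection, was higher too. It took 0.0387% to 0.0859% of counts under DMSO and 0.125% to 0.256% under NAE 18:3, and its part was not tested. The green markers were lower in 4 of 6, with CA1 at -0.89 ± 0.17 and HCEF1 at -0.51 ± 0.10. Their summed level was 14100 to 15800 CPM under DMSO and 12900 to 13800 under NAE 18:3, without the TMM scaling used in the tests. Of 10 tested root markers 3 rose and 3 fell, with WOX5 at 3.65 ± 0.28 and SCR at -1.09 ± 0.12, and their summed level was 3010 to 3980 CPM and 2130 to 2340 CPM. Here too the sum and most markers went apart, with 6 of 10 above 0 and a median of 0.31. The part of the markers in these results was not tested.

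**Figure D3:**
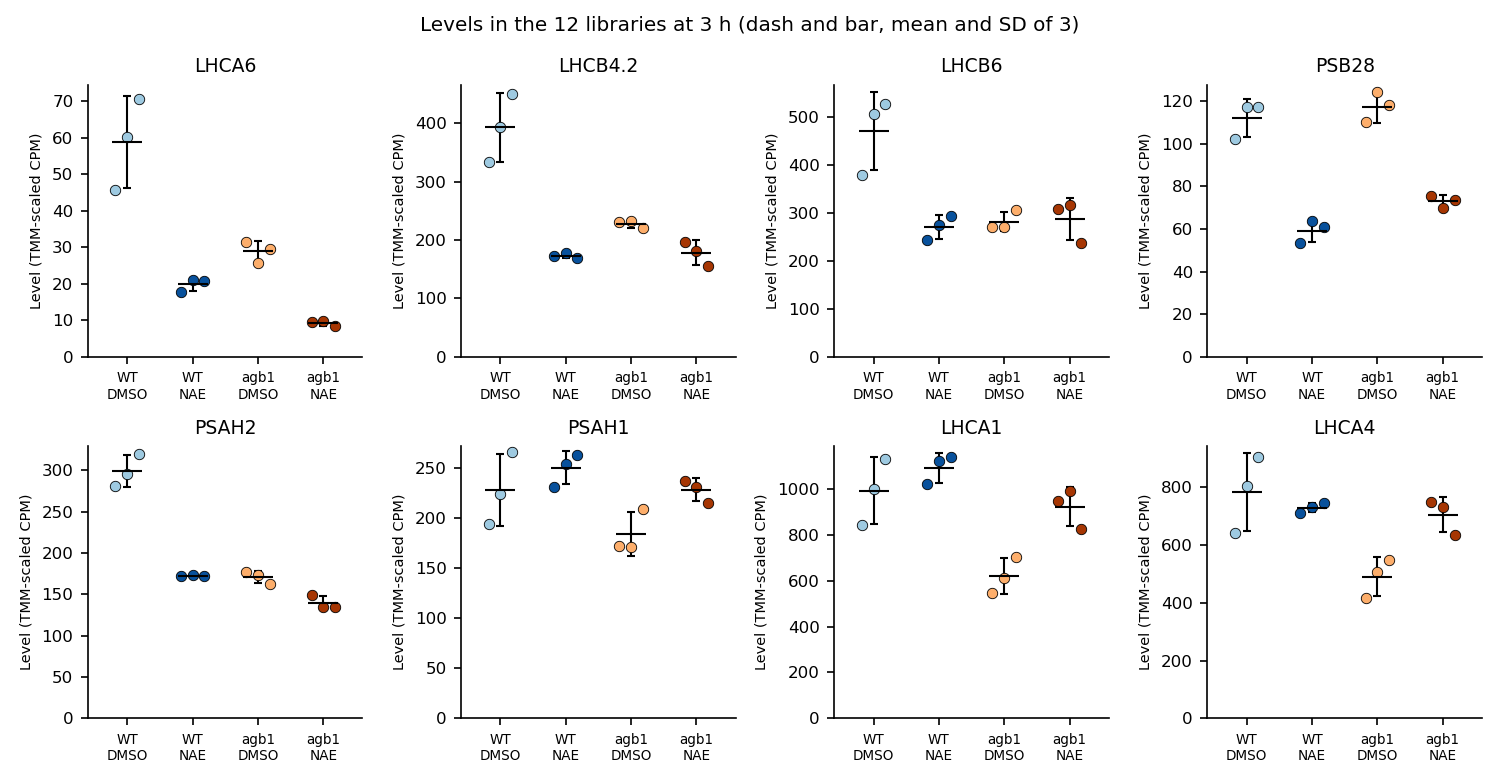
Level in TMM-scaled CPM (y axis, from 0) of 8 genes in the 12 libraries at 3 h; points are libraries, dash and bar the mean and SD of 3. LHCA6 and PSB28 are lower under NAE 18:3 in both genotypes, while LHCA1 and LHCA4 are higher under it in agb1, with overlapping groups in WT.

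The difference between the NAE 18:3 effects of agb1 and WT at 3 h was tested directly. It was called for 2 of the 45 genes, LHCB4.2 and LHCB6, both with a higher value in agb1. Of all tested loci, 1.32% were called higher and 1.65% lower. The difference was 0.82 ± 0.17 for LHCB4.2 (adjusted p = 0.024) and 0.83 ± 0.21 for LHCB6 (adjusted p = 0.048) on the log2 scale. LHCB4.2 was at 231, 233 and 220 CPM under DMSO and 197, 181 and 155 CPM under NAE 18:3 in agb1, so both genotypes ended near the same level from unequal starting levels. LHCB6 was at 271, 270 and 305 CPM and at 308, 317 and 237 CPM in agb1, with overlapping groups, while in WT it was at 378 to 527 CPM under DMSO and 243 to 293 CPM under NAE 18:3. The agb1 libraries under either treatment lay near those of WT under NAE 18:3.

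Neither call was stable. LHCB4.2 lost it in 3 of 18 alternatives, with an adjusted p of up to 0.0787, and LHCB6 in 9 of 18, with up to 0.135. Without replicate 1 or replicate 2 of agb1 under NAE 18:3, or without replicate 2 of WT under DMSO, none of the 45 was called. Without replicate 1 of agb1 under DMSO 4 were called and without replicate 1 of WT under DMSO 6, and leaving out replicate 3 of WT under DMSO, or any 1 library of WT under NAE 18:3, gave 1. PSAH2, at 0.51 ± 0.13, just missed the threshold (adjusted p = 0.0511), followed by PSAD2 at 0.86 ± 0.25, LHCA3 at 0.52 ± 0.16 and LHCA4 at 0.63 ± 0.20. Over all 45 genes the median difference was 0.26, and -0.023 over all tested loci. Of the 8 major antenna genes, 5 were called higher, with a median of 1.09, though reads may be split unevenly among copies. PSBQ1 was at 0.54 ± 0.18, PSBO2 at 0.46 ± 0.19, PETE1 at 0.57 ± 0.26 and LFNR2 at 0.29 ± 0.14, and none of these passed. For LHCA6 the difference was -0.07 ± 0.21, and a p that misses the threshold does not show equal responses.

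Under DMSO at 3 h, agb1 had lower levels than WT in 40 of the 45 genes and a higher level in none. Of all tested loci, 11.1% were called lower and 7.84% higher. The median log2 fold change was -0.67, against 0.02 over all loci. The 40 were 10 of 12 photosystem I, 11 of 13 photosystem II and 8 of 9 electron transport genes, and all 5 minor antenna and all 6 LHCA genes. PSAE2, PSAH1, PSBX, PSB28 and PETC were not called. Among the 40, PSAG and LHCA5 had overlapping groups, which again describes genes already called on the same libraries. This comparison and the NAE 18:3 effect in WT share the 3 WT libraries under DMSO, so the fall in one and the lower level in the other are not independent.

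By complex, PSAH2 was at 177, 173 and 162 CPM in agb1, far below the 281 to 320 CPM of WT, a log2 fold change of -0.81 ± 0.091 (adjusted p = 5.98e-05). PSAF was at 2540, 1710 and 2030 CPM, against 3950, 3390 and 4050 CPM in WT, a log2 fold change of -0.86 ± 0.15. In photosystem II PSBTN was at 718, 613 and 702 CPM against 1130, 1300 and 1420, a log2 fold change of -0.92 ± 0.13. PSBO2 was lower by -0.86 ± 0.13. In each of these the agb1 libraries were all lower than the WT libraries.

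Of the electron transport genes PETE2, the main plastocyanin gene, was at 1170, 1060 and 1250 CPM in agb1 against 1740, 1900 and 2060 CPM in WT, a log2 fold change of -0.71 ± 0.11, and ATPD was at -0.66 ± 0.11. In the antenna LHCB4.2 was at -0.79 ± 0.12 and LHCB4.3 at -0.93 ± 0.15. LHCA6 was at -1.02 ± 0.14 and LHCA3 at -0.78 ± 0.11. The exception PSB28 was at 110, 124 and 118 CPM in agb1 against 102, 117 and 117 in WT, with overlapping groups. Of the 40 genes, 35 were called in all 19 alternatives.

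The green tissue markers were lower in agb1 under DMSO at 3 h in 6 of 6 genes. Their summed level, not TMM-scaled, was 14100 to 15800 CPM and did not overlap the 23900 to 28300 CPM of WT. All 8 tested major antenna genes were lower, with a median of -1.10. Of 20 assembly and regulation genes 9 were lower, of 6 other electron transport genes 2 were lower and 2 higher, and no plastid-encoded gene was called. Root markers were at 3010 to 3980 CPM in agb1 and 4240 to 4990 in WT, with 1 of 10 higher and 1 lower. What these markers and the depth contribute was not tested.

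**Figure D4:**
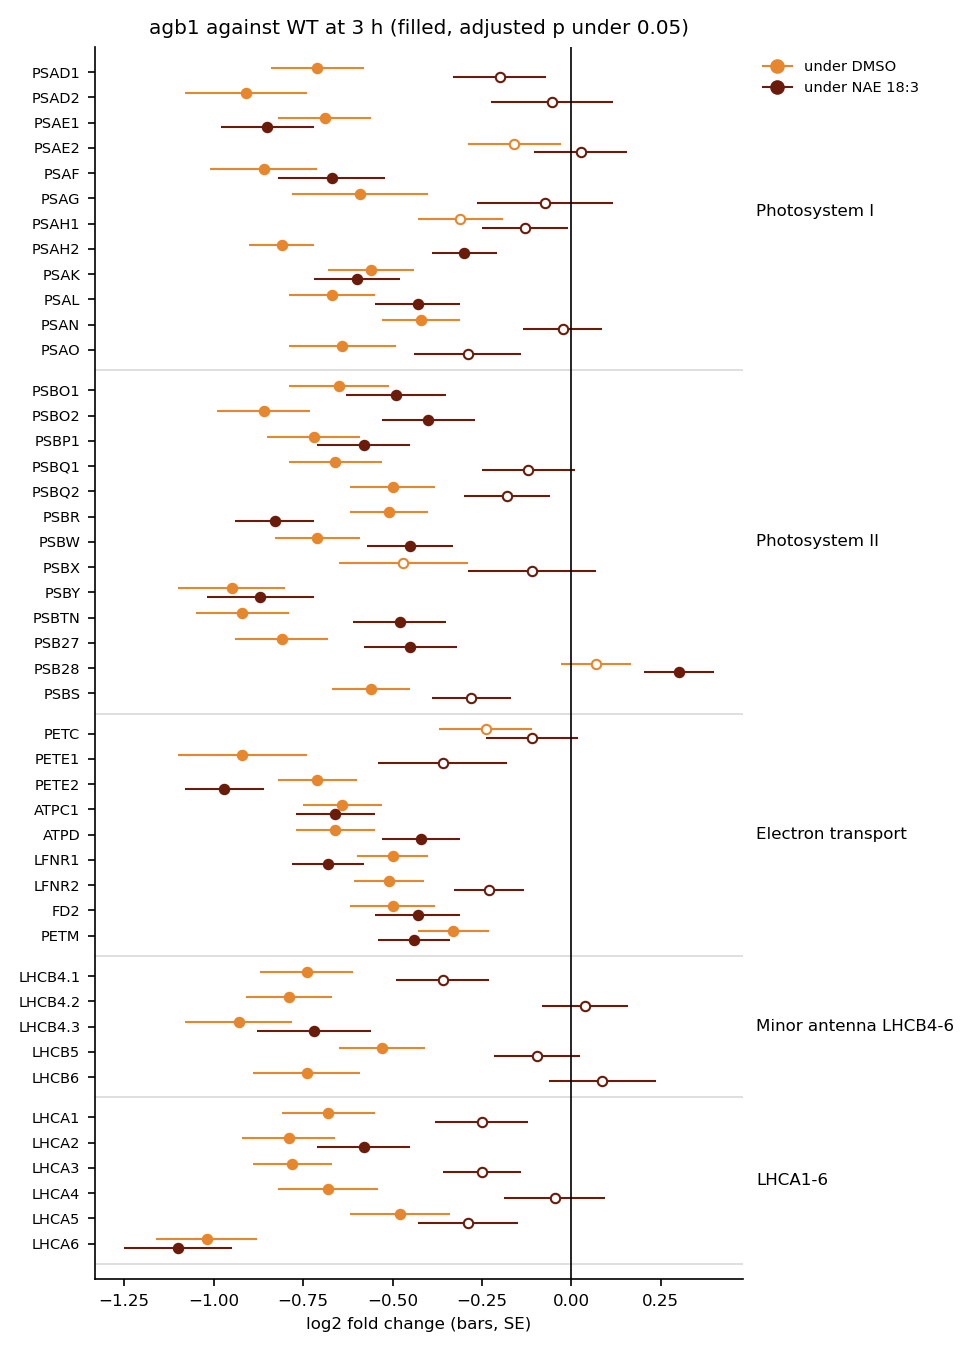
Log2 fold change of each of the 45 genes (x axis, bars SE) in agb1 against WT at 3 h, under DMSO and under NAE 18:3, grouped by complex; filled points have an adjusted p under 0.05. Under DMSO 40 are filled, all below 0; under NAE 18:3 22 are filled below 0 and PSB28 above 0.

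Under NAE 18:3 at 3 h, agb1 was lower than WT in 22 of the 45 genes, against 13.7% of all tested loci, and higher in 1, against 9.24%. The median log2 fold change was -0.36, and -0.013 over all loci. The 22 were 5 photosystem I, 8 photosystem II, 6 electron transport, 1 minor antenna and 2 LHCA genes. PETE2 had the smallest p, at 946, 897 and 931 CPM in agb1 against 1760, 1920 and 1780 CPM in WT, a log2 fold change of -0.97 ± 0.11 (adjusted p = 4.57e-05). The WT level of PETE2 was nearly that under DMSO, while in agb1 it fell by 0.33 ± 0.11 under NAE 18:3. LFNR1, which docks at the thylakoid, was at -0.68 ± 0.10.

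PSBR was at 1300, 1350 and 1330 CPM in agb1 against 2070, 2510 and 2470 CPM in WT, a log2 fold change of -0.83 ± 0.11 (adjusted p = 0.000266), and PSBY was at -0.87 ± 0.15. PSAE1 was at 75.9, 79.6 and 66.5 CPM against 112, 135 and 153 CPM, a log2 fold change of -0.85 ± 0.13, and PSAK was at -0.60 ± 0.12. In all of these the agb1 libraries were lower without overlap. LHCB4.3 was at -0.72 ± 0.16, LHCA6 at -1.10 ± 0.15 and LHCA2 at -0.58 ± 0.13. LHCB4.1, at -0.36 ± 0.13, did not pass. PSB28 was higher, at log2 0.30 ± 0.098, with 75.6, 69.9 and 73.5 CPM against 53.5, 63.6 and 60.7 CPM (adjusted p = 0.0409). That call was lost in 5 of 19 alternatives, those without any 1 library of agb1 under NAE 18:3 or without replicate 1 or 3 of WT under NAE 18:3. Without single libraries the count of genes called ran from 13 to 24. It was 15 without replicate 2 and 13 without replicate 3 of agb1 under NAE 18:3, and 14 without replicate 2 of WT under NAE 18:3.

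At 1 h the changes were small. NAE 18:3 in WT lowered 2 genes, PETE1 and PSAK, and raised none. Of all tested loci, 8.02% were called lower and 12.4% higher. PETE1 was at 84.1, 72.0 and 81.8 CPM under DMSO and 59.2, 53.2 and 64.9 CPM under NAE 18:3, a log2 fold change of -0.43 ± 0.091 (adjusted p = 0.00395). PSAK was at 880, 771 and 840 CPM and at 729, 616 and 709 CPM, a log2 fold change of -0.28 ± 0.092 (adjusted p = 0.0452). The groups were apart in both, but PSAK was lost in 11 of 19 alternatives and PETE1 in 1. The next photosystem I and electron transport genes by p were PSAH2, at log2 -0.20 ± 0.095, and PETM, at -0.13 ± 0.10. Values of smallest p in the other complexes were log2 -0.26 ± 0.11 for PSBR, -0.17 ± 0.093 for PSBW, -0.21 ± 0.14 for LHCB4.2, -0.17 ± 0.12 for LHCB6, -0.24 ± 0.13 for LHCA4 and -0.14 ± 0.10 for LHCA6. None of these passed. Without the library rich in ribosomal RNA the count was also 2. It was 1 without replicate 1 or 3 of WT under DMSO or replicate 2 of WT under NAE 18:3, and 3 without replicate 1 or 3 of WT under NAE 18:3.

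In agb1 at 1 h no member was called, while 13.8% of all tested loci were called in either direction, and 2 of the 45 had an unadjusted p under 0.05, against 25.2% of all tested loci. DESeq2 also called none. The 2 values of smallest p in each complex were all above 0. They were log2 0.19 ± 0.082 for PSAE2 and 0.21 ± 0.11 for PSAL, 0.16 ± 0.093 for PSBW and 0.16 ± 0.094 for PSBTN, and 0.23 ± 0.096 for PETE2 and 0.10 ± 0.083 for LFNR1. In the antenna they were 0.20 ± 0.097 for LHCB4.1 and 0.14 ± 0.12 for LHCB6, and 0.20 ± 0.10 for LHCA2 and 0.14 ± 0.11 for LHCA3.

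Of the lists around the members, few genes were called at 1 h. None of the 8 tested major antenna genes, the 20 assembly and regulation genes, the 20 plastid-encoded genes or the 6 green tissue markers was called for NAE 18:3 in WT or in agb1. The plastid-encoded genes had a median log2 fold change of -4.54 in WT, where their summed level under DMSO was 6210 CPM in the library rich in ribosomal RNA and 130 and 166 CPM in the other libraries. The ferredoxin reductase RFNR2 fell by 0.55 ± 0.084 in WT and by 0.48 ± 0.083 in agb1 on the log2 scale, and the ferredoxin FD3 by 0.49 ± 0.085 and 0.27 ± 0.084. Of 11 tested root markers 4 rose in WT, among them WOX5 by 1.09 ± 0.15 and TIP2;3 by 1.06 ± 0.21. In agb1 4 rose and 1 fell, with WOX5 at 1.78 ± 0.14 and NRT2.1 at -3.17 ± 0.54. The summed level of the green markers was 18400 to 24000 CPM in the 12 libraries at 1 h, and the groups overlapped.

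The difference between the genotypes' NAE 18:3 effects at 1 h was called for none of the 45 by edgeR or DESeq2, against 0.0753% of all tested loci. An unadjusted p under 0.05 was found for 9 of the 45 and for 9.11% of all tested loci. Its median was 0.22 over the members and 0.004 over all loci. PSAK had the smallest p, at 0.45 ± 0.13, with an adjusted p of 0.451, then PETE1 at 0.38 ± 0.13, PSAE2 at 0.33 ± 0.12 and PSBR at 0.44 ± 0.16. PSBW was at 0.34 ± 0.13 and PETE2 at 0.34 ± 0.14. In the antenna the leading values were 0.31 ± 0.16 for LHCB6, 0.23 ± 0.14 for LHCB4.1, 0.36 ± 0.19 for LHCA4 and 0.20 ± 0.15 for LHCA2.

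Under DMSO at 1 h, agb1 was lower than WT in 14 of the 45 genes, against 5.75% of all tested loci. It was higher in none, against 5.63%, and the median over the 45 was -0.18. The 14 were 2 photosystem I, 7 photosystem II, 3 electron transport and 2 LHCA genes. PSBR had the smallest p, at 848, 715 and 887 CPM in agb1 and 1320, 1110 and 1260 CPM in WT, a log2 fold change of -0.59 ± 0.11 (adjusted p = 0.0066). LHCA5 was at 66.1, 64.0 and 76.6 CPM against 105, 85.1 and 88.8 CPM, a log2 fold change of -0.43 ± 0.09, and PSB28 was at -0.46 ± 0.095. The groups did not overlap in these genes. PETE2 was at -0.39 ± 0.096, PETC at -0.32 ± 0.095, PSAK at -0.36 ± 0.092, PSAE2 at -0.31 ± 0.082 and LHCA6 at -0.38 ± 0.10. No minor antenna gene was called, with LHCB4.3 at -0.15 ± 0.11 and LHCB4.1 at -0.074 ± 0.097.

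This count rested on single libraries. Without replicate 1 of WT under DMSO, or without replicate 1 or replicate 2 of agb1 under DMSO, 3 genes were called, and without replicate 3 of WT under DMSO 8. Without replicate 2 of WT under DMSO, the library rich in ribosomal RNA, 16 were called. PSBR and PSB28 were called in all 19 alternatives. The members are short, with a median exon length of 1162 bases against 1764 over loci tested at 3 h, and libraries differed in how levels followed length. Across loci, the rank correlation of exon length with a library's deviation from the mean log level was -0.33, -0.18 and -0.07 in WT and 0.22, 0.22 and -0.03 in agb1 under DMSO at 1 h. With that trend removed from each library, 5 members were called lower, with a median of -0.083.

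Under NAE 18:3 at 1 h agb1 and WT differed in none of the 45 genes by edgeR, against 8.97% of all tested loci in either direction, while 9 had an unadjusted p under 0.05, against 23.9% of all tested loci. DESeq2 called 4. The smallest p were those of LHCA5, at -0.29 ± 0.09, and LHCA1, at 0.43 ± 0.14. In photosystem I the values were above 0 for 11 of 12 genes, with PSAE1 at 0.25 ± 0.12 and PSAD1 at 0.18 ± 0.094. In electron transport they were below 0 for 8 of 9, with LFNR1 at -0.23 ± 0.083 and LFNR2 at -0.18 ± 0.09. Photosystem II had 5 above and 8 below 0, with PSB28 at -0.27 ± 0.095 and PSBQ2 at 0.22 ± 0.088. LHCB6 was at 0.26 ± 0.12 and LHCB4.1 at 0.15 ± 0.097. Leaving out the library rich in ribosomal RNA, which is not in this comparison but shares its fit, gave 1 call. Without replicate 3 of WT under NAE 18:3 there were 3.

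The NAE 18:3 effect was also compared between times in 1 fit of all 24 libraries. In WT it was lower at 3 h than at 1 h for 19 of the 45 genes, against 22.8% of all loci tested, and higher for 1, PSAK, against 25.2%. LHCA6 differed most, by -1.40 ± 0.19 (adjusted p = 2.47e-06), and LHCB4.2 differed by -0.95 ± 0.19, LHCB4.3 by -0.83 and ATPD by -0.81 ± 0.14. The call of PSAK was lost in 7 of 29 alternatives, among them the removal of the length trend. In agb1 it was lower at 3 h for 12 genes, against 17.5% of all loci, and higher for none, against 17%. LHCA6 again differed most, by -1.60 ± 0.19 (adjusted p = 8.99e-07). PSBY differed by -0.75 ± 0.18 and ATPD by -0.76 ± 0.14. Time and table cannot be told apart in levels. PSAG was at 166 ± 21.6 CPM in the 1 h table and 11.2 ± 2.52 in the 3 h table in WT under DMSO, and 479 of its 780 exon bases overlap a locus on the other strand. Members with such a neighbour number 13, and PSAH1 (693 of 1300 bases) and PSAE1 (272 of 798) have the largest overlapping share of their exon bases after PSAG. PSAH2 (174 of 702) and LHCB6 (246 of 1204), both named above for their falls in WT at 3 h, come next.

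Members of 7 pairs of paralogs and of the LHCB4 set did not all move alike in WT at 3 h. PSAH2, PSBO2, PETE1, LFNR2, LHCB4.2 and LHCB4.3 fell, while PSAH1, PSBO1, PETE2, LFNR1 and LHCB4.1 were not called. No 75-base word, the length of 1 read, was shared between the exons of members of any of the 9 paralog sets, so whole reads did not match a pair exactly. The ratio of paralogs within a library, which needs no scaling, was computed for 10 ratios in each genotype and time, 40 comparisons in all, which were chosen after values were seen. With 3 libraries against 3 the exact two-sided permutation p cannot go below 0.1, so they are given as values.

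The log2 ratio of PSAH1 to PSAH2 in WT at 3 h was -0.53, -0.40 and -0.27 under DMSO. It rose to 0.43, 0.55 and 0.61 with NAE 18:3, and the groups did not overlap. Ratios are of counts without correction for exon length, so their sign does not show which copy is higher. Per kilobase of exon, PSAH2 stayed the higher copy in both WT groups. The means were 426 CPM per kb for PSAH2 against 175 for PSAH1 with DMSO, and 246 against 192 with NAE 18:3. Exons of both copies overlap loci on the other strand, and the neighbours' part in the ratio was not tested. In agb1 the PSAH1 to PSAH2 ratio had a mean of 0.10 and 0.71. The ratio of PSBO1 to PSBO2 had a mean of 2.27 under DMSO and 2.78 under NAE 18:3 in WT, and 2.48 and 2.69 in agb1. LFNR1 to LFNR2 had a mean of -0.22 and 0.29 in WT without overlap, and -0.21 and -0.16 in agb1 with overlap. LHCB4.2 to LHCB4.1 had a mean of -2.28 and -3.28 in WT, and -2.33 and -2.89 in agb1, each without overlap. PETE1 to PETE2 was separated in WT, with means of -4.68 and -5.42, and overlapped in agb1. LHCA6 to LHCA2, taken up after LHCA6 was seen to fall, was separated in both genotypes. PSAD1 to PSAD2 and PSAE1 to PSAE2 overlapped in WT and were separated in agb1, with means of 2.68 and 2.32 and of -1.21 and -1.52. PSBQ1 to PSBQ2 overlapped in both genotypes.

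**Figure D5:**
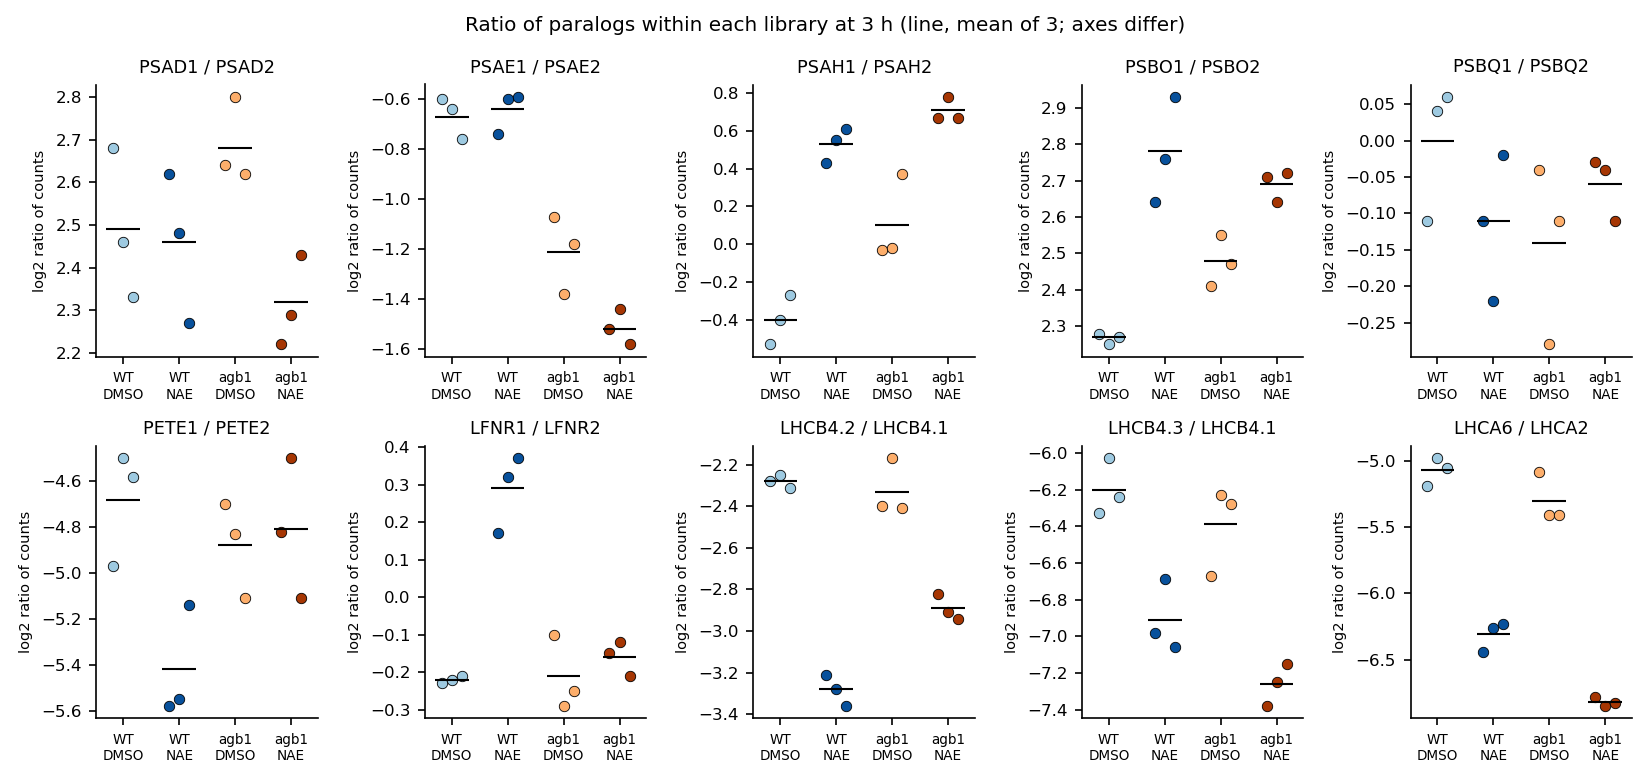
Log2 ratio of counts of paralogs within each library at 3 h (y axes differ between panels); points are libraries, lines the mean of 3. PSAH1 / PSAH2 lies below 0 in the 3 WT libraries under DMSO and above 0 in the 3 under NAE 18:3. Ratios are not corrected for exon length, so 0 does not mark equal levels. PSBQ1 / PSBQ2 overlaps in WT.

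At 1 h the ratios moved less. In WT the ratio of PETE1 to PETE2 was separated between treatments, with means of -4.67 and -5.00, and the other 9 overlapped, PSAH1 to PSAH2 narrowly, with means of -0.20 and -0.04. In agb1 PETE1 to PETE2 had means of -4.56 and -4.85 and PSAH1 to PSAH2 of -0.11 and 0.04, each without overlap. LHCB4.2 and LHCB4.3 to LHCB4.1 and LHCA6 to LHCA2 were separated too, with NAE 18:3 lower by 0.18, 0.23 and 0.23 in the mean log2 ratio.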

How the data were processed

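Poly(A)-enriched stranded libraries were made from whole seedlings and sequenced as paired reads, per the labels' protocols. The submitters' processing notes name STAR and the TAIR10 build, and the authors deposited whole-number counts per TAIR locus in 1 table for each time. The counting tool and its strand setting are not given in the sources used here, so reads of a locus and of an overlapping neighbour may not be told apart. The deposited normalized tables hold a signal, which equals the counts divided by 1 constant per library; the submitters' processing notes name DESeq2, and no result rests on these tables.

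Counts were tested with edgeR 4.0.16 (R 4.3.3): TMM scaling, filterByExpr by group (minimum count 10, minimum total 15), a robust quasi-likelihood F test on the 12 libraries of a time point, or on all 24 for differences between times, and Benjamini-Hochberg adjustment over all loci tested. Genes were called at an adjusted p under 0.05. Levels of single genes are TMM-scaled CPM computed from the counts, while shares and summed levels of lists are relative to the raw library total. Each result was recomputed with DESeq2 1.42.0, RLE scaling, all loci kept, a replicate block, removal of a smooth length trend per library, fits of 24 or 6 libraries, and leaving out each library in turn. Scripts were tested on simulated counts.

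The rule for the members names loci and uses no measured value, but the members and gene lists were chosen with earlier results of these data known. Values are given in each comparison for the 2 members of smallest p in each complex, for called members against the direction of their complex, and for at most 2 genes of each surrounding list. Exon lengths, neighbours and promoters come from RefSeq TAIR10.1. Protein sequences were not used here.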

Additional observations from a re-analysis of the deposited data

Results flagged for a closer look

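Results in this section were set apart because the same treatment effect differed, by a test of the difference itself, between genotypes or between times. All are log2 differences with an adjusted p under 0.05 in edgeR's quasi-likelihood test. Between genotypes at 3 h, the NAE 18:3 effect was higher in agb1 than in WT by 0.82 for LHCB4.2 and by 0.83 for LHCB6.

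In WT the NAE 18:3 effect was lower at 3 h than at 1 h for 19 genes and higher for PSAK, by 0.41, a call lost in 7 of 29 alternatives. In photosystem I the differences were -0.52 for PSAD1, -0.56 for PSAH2 and -0.42 for PSAN. In photosystem II they were -0.51 for PSBO2, -0.49 for PSBP1, -0.63 for PSBY, -0.55 for PSBTN, -0.68 for PSB27, -0.74 for PSB28 and -0.54 for PSBS. Electron transport gave -0.70 for ATPC1, -0.81 for ATPD, -0.54 for LFNR2 and -0.66 for FD2. In the antenna they were -0.95 for LHCB4.2, -0.83 for LHCB4.3, -0.60 for LHCB6, -0.43 for LHCA3 and -1.40 for LHCA6.

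In agb1 it was lower at 3 h for 12 genes. The differences were -0.49 for PSBP1, -0.44 for PSBR, -0.75 for PSBY, -0.42 for PSBTN, -0.55 for PSB27 and -0.71 for PSB28 in photosystem II. They were -0.55 for PETE2, -0.68 for ATPC1, -0.76 for ATPD and -0.67 for FD2 in electron transport, -0.63 for LHCB4.3 and -1.60 for LHCA6. No photosystem I gene was called in agb1. Whether the differences between times themselves differ between WT and agb1 was not tested.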

How the results depend on the processing

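No member changed sign past the threshold under any alternative. The counts of members called kept within 1.5 times for NAE 18:3 in WT at 3 h (24, or 21 to 27 without single libraries), agb1 against WT under DMSO at 3 h (40, or 35 to 42), and the differences between times in WT (20, or 16 to 22) and agb1 (12, or 8 to 13). They stayed at 0 for NAE 18:3 in agb1 at 1 h and for the genotype difference of that effect at 1 h. Other counts moved. For NAE 18:3 in WT at 1 h, 2 genes became 1 with no filter, with the length trend removed or with 6 libraries, 0 with 24 libraries, and 1 to 3 without single libraries. Of the 14 genes lower in agb1 under DMSO at 1 h, the count became 5 with the length trend removed, 4 with 24 libraries, 7 with 6, and 3 to 16 without single libraries. Under NAE 18:3 at 1 h, 0 became 4 with DESeq2, 2 with the length trend removed, 1 with 6 libraries, and 0 to 3 without single libraries. At 3 h, NAE 18:3 in agb1 (16) gave 10 to 18 and agb1 against WT under NAE 18:3 (23) gave 13 to 24 without single libraries. The genotype difference of the NAE 18:3 effect at 3 h (2) was 7 with DESeq2, 8 with 24 libraries, and 0 to 6 without single libraries. The cause was not tested.

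The labels do not say whether replicate numbers pair the samples. Deviations of same-numbered libraries from different groups correlated between -0.18 and 0.16 at 1 h and between -0.13 and 0.26 at 3 h. For differently numbered libraries the ranges were -0.21 to 0.14 and -0.27 to 0.13. Weak correlations do not exclude a pairing. With the number as a replicate block, counts at 1 h were 2, 0, 0, 16 and 0 for NAE 18:3 in WT, in agb1, their difference, and agb1 against WT under DMSO and NAE 18:3. At 3 h they were 23, 17, 1, 40 and 22, and for the differences between times 21 and 12.

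Low members, such as LHCB4.3 and PSAG, have wider errors, and every comparison rests on 3 libraries a group.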
